A study of Homo sapiens with 4 samples.

Results

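MicroRNA host lncRNAs are long non-coding RNAs named after the microRNA whose hairpin lies inside them. They were taken here as every gene of the deposited count table whose symbol starts with MIR, goes on with digits or capital letters only, and ends with HG, which gave 61 of the 59652 genes used. The rule used names alone and no measured value. Symbols with a hyphen, such as MIR4435-2HG, do not meet it. GENCODE release 44 lists 60 of the 61 as lncRNAs, and MIR381HG was not found there. A hairpin gene of the same table lay inside the host on the same strand for 59 of them, 98 hairpins in all. The exceptions were MIR7515HG, whose hairpin lies on the opposite strand, and MIR670HG.

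A microRNA gene is usually transcribed by RNA polymerase II as a long primary transcript, from which the nuclear enzyme DROSHA with its partner DGCR8 cuts a hairpin. Exportin 5 (XPO5) carries the hairpin to the cytoplasm, DICER1 cuts it to the mature microRNA, and an Argonaute protein holds it and finds mRNAs that pair with its seed, the bases 2 to 8 of the microRNA. The spliced host RNA and the mature microRNA have separate fates after that cut, and the libraries described here measure the host RNA. In liver, MIR122HG is the best known host, because miR-122 is the dominant microRNA of hepatocytes. Proteins of the LIN28 family block the maturation of let-7 microRNAs.

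Huh7 and PLC are cell lines of human hepatocellular carcinoma (HCC), both labelled wild type. Each was grown in glucose-free medium with serum, to which 5 mM (low) or 25 mM (high) glucose was added for 48 h, and total RNA depleted of rRNA was sequenced from directional libraries. The study made these libraries to look for lncRNAs that follow the glucose concentration. Each line at each concentration gave 1 library, so no comparison of concentrations within a line has a replicate check, and the intervals given below cover counting error only. Counted reads were between 16049686 (PLC, 25 mM) and 30279716 (PLC, 5 mM) per library, and 3 reads stand for 0.0991 to 0.187 CPM (reads scaled to a common library total). Of 8 hepatocyte markers, 8 had an FPKM (CPM divided by the gene length in kb) over 0.5 in both Huh7 libraries and 7 in both PLC libraries, where transthyretin (TTR) had 4 and 0 reads. Of 11 markers of fibroblasts, endothelial cells and leukocytes, 2 passed that level in Huh7 (PECAM1 and CD14) and 1 in PLC (CD14).

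The mature sequences of the hosts described below show which of them carry related microRNAs, and are given 5′ to 3′ with the seed in capitals (RefSeq, GRCh38.p14). The first group holds the seed GAGGUAG of the let-7 family, which lies in 6 of the 61 hosts on 6 chromosomes. It is carried by let-7c in MIR99AHG, by let-7a in MIR100HG, MIRLET7A1HG and MIRLET7BHG, by let-7b in MIRLET7BHG, and by miR-4458 and miR-4500 in the hosts of those names.
let-7a-5p: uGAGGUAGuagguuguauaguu
let-7b-5p: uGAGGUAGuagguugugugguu
let-7c-5p: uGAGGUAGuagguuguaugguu
miR-4458: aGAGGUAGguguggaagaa
miR-4500: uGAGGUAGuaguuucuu
MIR99AHG and MIR100HG are built alike. Beside a let-7 hairpin each holds one of the miR-99/100 family, with the seed ACCCGUA, and one that gives the same miR-125b.
miR-99a-5p: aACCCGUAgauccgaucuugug
miR-100-5p: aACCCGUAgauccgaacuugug
miR-125b-5p: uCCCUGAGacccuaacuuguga
The remaining sequences belong to other hosts that the results below dwell on, for their level, their difference between the lines or their ratio between glucose concentrations. MIR122HG and MIR22HG each carry 1 hairpin, MIR17HG carries 6, and MIR222HG and MIR29B2CHG each carry a pair with a common seed.
miR-122-5p: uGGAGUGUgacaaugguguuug
miR-22-3p: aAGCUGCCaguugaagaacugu
miR-17-5p: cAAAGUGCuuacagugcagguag
miR-20a-5p: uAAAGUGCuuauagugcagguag
miR-92a-3p: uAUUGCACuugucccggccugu
miR-221-3p: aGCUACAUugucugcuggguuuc
miR-222-3p: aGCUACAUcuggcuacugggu
miR-29b-3p: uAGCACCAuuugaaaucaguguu
miR-29c-3p: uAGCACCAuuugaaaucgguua
miR-210-3p: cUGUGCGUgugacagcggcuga
miR-1915-3p: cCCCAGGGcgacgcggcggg
miR-4307: aAUGUUUUuuccuguuucc
miR-646: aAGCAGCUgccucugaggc
miR-924: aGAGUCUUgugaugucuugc
Seeds were also shared by the hosts MIR181A1HG and MIR181A2HG, which both carry miR-181a and miR-181b.

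The hairpins have rows of their own in the table, and these rows did not follow the hosts. All 33 hairpins that lie within a host exon, those of MIR122HG and MIR17HG among them, had 0 reads in all 4 libraries, and so had the 7 hairpins that cross an exon edge. Of the 58 hairpins within introns, 27 had at least 1 read, and the highest count was 32. The counts on hairpins therefore say nothing here on the abundance of the mature microRNAs, and how the counting treated reads shared by a hairpin and its host is not given in the sources used here. Exons of 22 hosts also overlap an exon of some gene other than a hairpin, and no source says whether reads were counted by strand, so the counts of such hosts are uncertain. Beside those whose overlap is given with their values below, this holds for MIR99AHG (AP001172.1, 57 and 54 reads in Huh7, 0 and 0 in PLC), MIRLET7BHG (PRR34-AS1, 0 and 1, then 97 and 54, and PRR34, 0 and 0, then 23 and 21), MIR924HG (AC011139.1, 23 and 29, then 7 and 6), MIR583HG (AC099509.1, 6 and 10, then 6 and 0) and MIR762HG (BCL7C, 106 and 150, then 343 and 297). The genes that overlap MIR34AHG, MIR100HG, MIR4458HG, MIR4500HG and MIR663AHG had 6 reads or fewer in every library.

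To see which hosts each line expresses, the level that the study asks of a lncRNA was applied, FPKM over 0.5, in both libraries of a line. This was met by 18 of the 61 hosts in Huh7 and by 21 in PLC, of which 12 were the same. The same level was met by 19.8% of all 16954 lncRNAs in Huh7 and by 18% in PLC, and by 31.2% and 29.8% of all genes. At the other end, 14 hosts had 0 reads in every library, among them MIR31HG, MIR205HG and MIR223HG (the host of the myeloid miR-223), and another 5 had no more than 3 reads in any library. In the plot of levels by library, a host that meets the level in 1 line only has points on both sides of the limit. Such points can lie close together and do not by themselves mark a difference between the lines. MIR503HG, for instance, had 0.608 and 0.930 FPKM in Huh7 and 0.374 and 0.415 in PLC.

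**Figure D1:**
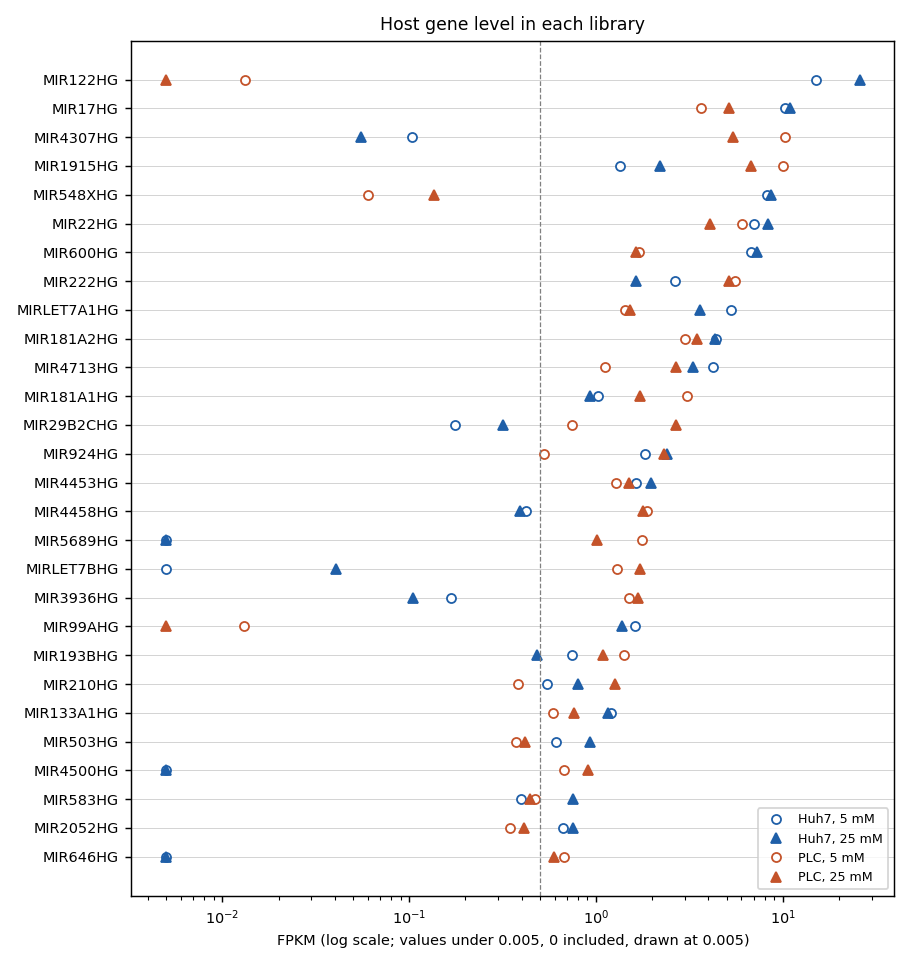
FPKM (horizontal, log scale) of the 28 hosts with FPKM over 0.5 in at least 1 library and at least 20 reads in a line, with open circles for 5 mM and filled triangles for 25 mM glucose, blue for Huh7 and orange for PLC; the dashed line marks 0.5. MIR122HG reaches 25.8 in Huh7 and lies at 0.0132 and 0 in PLC, while MIR4307HG reaches 10.3 in PLC.

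By the lowest of the 4 libraries, MIR22HG and MIR17HG were the most abundant hosts common to both lines. MIR17HG, the host of the miR-17-92 cluster that promotes proliferation in many tumours, lies on chromosome 13 from 91347820 to 91354579, plus strand, of GRCh38. It had 10.3 FPKM at 5 mM and 10.9 at 25 mM in Huh7, and 3.66 and 5.18 in PLC. MIR22HG, on chromosome 17 from 1711493 to 1717174, minus strand, had 6.97 and 8.28 FPKM in Huh7 and 6.06 and 4.07 in PLC. The levels of MIR17HG do not overlap between the lines, and those of MIR22HG come within 1 FPKM of each other at 5 mM. MIR181A2HG (4.38 and 4.32 FPKM in Huh7, 2.99 and 3.48 in PLC) also kept to a narrow range in all 4 libraries.

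The lines carried partly separate sets of hosts. Huh7 had those of miR-122, of both clusters of let-7 with miR-125b and of miR-548x, and PLC those of miR-4307, miR-646, let-7b and miR-4500, each with few reads or none in the other line. Of the hosts of these clusters, MIR100HG stayed under 0.5 FPKM in both Huh7 libraries. Among hosts with reads in both, those of the miR-17-92 cluster and miR-600 were higher in Huh7, and those of miR-29, miR-221 and miR-1915 higher in PLC. All 4 libraries entered 1 edgeR quasi-likelihood test of PLC against Huh7, with the glucose concentration as a block and Benjamini-Hochberg adjustment over all 23217 genes tested. The libraries of a line differ in glucose and are not replicate cultures. The fit has 1 residual degree of freedom, the difference of the line effect between concentrations, which edgeR combines with information from all genes. The p-values therefore do not measure a spread between replicate cultures. The filter on low counts kept 36 hosts, and 23 of them had an adjusted p under 0.05, 12 higher in PLC and 11 higher in Huh7. Of all genes tested, 43% passed (21.1% higher in PLC and 21.9% higher in Huh7), and of all lncRNAs tested, 35.7% (16.1% and 19.6%). A host with reads in 1 line alone could pass the filter only through that line and had to differ, and 7 of the 23 had 3 reads or fewer in both libraries of a line. For the 29 hosts with more reads in each line, 16 passed. Of these, MIR99AHG, MIR548XHG, MIR4307HG and MIRLET7BHG still met the filter only through the line where they were higher. Their calls are therefore no separate support for a difference. MIR762HG, which was not called, met the filter only through PLC. In all 23 the lines did not overlap, and the direction was the same at 5 mM and at 25 mM. The hosts were called on these same 4 libraries, which makes this likely, so it is no separate support. The share among all genes was not taken. With DESeq2 in place of edgeR, 6 of the 23 calls were lost, those of MIR34AHG, MIR137HG, MIR181A1HG, MIR193BHG, MIR4300HG and MIR663AHG.

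MIR122HG had many reads in Huh7 and almost none in PLC. It lies on chromosome 18 from 58445788 to 58453766, plus strand, with the hairpin of miR-122 in an exon at 58451074 to 58451158. Its reads were 1614 at 5 mM and 3888 at 25 mM in Huh7, and 2 and 0 in PLC. It was thus the most abundant host per length in Huh7 and practically without reads in PLC. At 5 mM the ratio of Huh7 to PLC CPM was 1143 (95% interval 316 to 9447), and at 25 mM it was at least 691-fold higher in Huh7, against 3 reads in the PLC library. Hepatocyte markers moved the same way, with albumin (ALB) at 2017 and 2039 FPKM in Huh7 and at 52.4 and 72.3 in PLC, and TTR at 39.5 and 39.7 against 0.0607 and 0. The regulator HNF4A did not, with 29.0 and 31.1 FPKM against 35.0 and 38.5. Summed over the 8 hepatocyte markers, the level was 4765 and 4891 FPKM in Huh7 and 642 and 1413 in PLC. In such bulk RNA, fewer cells of a kind and less RNA per cell cannot be told apart, and the part of these genes in the difference of MIR122HG was not tested.

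The 6 hosts with a let-7 seed were among the 23, 3 higher in each line, where 43% of all genes tested passed. Of the 6, MIR100HG and MIR4500HG are among those that passed the filter through 1 line and had to differ. MIR99AHG and MIRLET7BHG had few reads in 1 line and also met the filter only through the line where they were higher. The calls of these hosts are therefore no separate support for a difference. MIR99AHG, on chromosome 21 from 15928296 to 16645467, plus strand, had 1492 and 1771 reads in Huh7 and 17 and 2 in PLC (log2 fold change of PLC against Huh7 -7.42 ± 0.43, standard error, by edgeR). MIR100HG, on chromosome 11 from 122028325 to 122556721, minus strand, had 96 and 72 reads in Huh7 and 0 and 2 in PLC. At 5 mM it was at least 45.3-fold higher in Huh7 against 3 reads, and at 25 mM the ratio was 19.2 (95% interval 5.13 to 162). The spliced length of MIR100HG is 28649 bases, so its reads in Huh7 make only 0.157 and 0.0835 FPKM. Both hosts that pair let-7 with miR-125b and miR-99 or miR-100 were therefore nearly confined to Huh7 among these 4 libraries.
MIRLET7A1HG, with the hairpins of let-7a-1, let-7f-1 and let-7d, was present in both lines and higher in Huh7. Its reads were 512 and 491 in Huh7 and 197 and 110 in PLC (log2 fold change -1.57 ± 0.32, adjusted p = 0.00138 by edgeR). Exons of LINC02603 overlap it on the opposite strand, with 63 and 75 reads in Huh7 and 14 and 20 in PLC.
The other 3 were higher in PLC. MIRLET7BHG, on chromosome 22 from 46053869 to 46113928, plus strand, holds let-7a-3 and let-7b and had 0 and 7 reads in Huh7 and 224 and 158 in PLC (log2 fold change 6.11 ± 0.65 by edgeR). MIR4500HG had 0 reads in both Huh7 libraries and 329 and 235 in PLC, which is at least 77.4-fold higher at 5 mM and at least 147-fold higher at 25 mM. MIR4458HG had 65 and 85 reads against 409 and 207 (log2 fold change 2.17 ± 0.34, adjusted p = 0.000215 by edgeR). Summed over the 6 hosts, they came to 101 and 80.6 CPM in Huh7 and 38.8 and 44.5 in PLC. CPM is not divided by length, and MIR99AHG, with 42926 bases, alone made 69.8 and 58.9 CPM in Huh7. Per length it had only 1.63 and 1.37 FPKM there, where MIRLET7A1HG had 5.29 and 3.61. A sum per length was not taken, so the CPM sums do not show which line had the higher level. LIN28B, a blocker of let-7 maturation, was abundant in both lines, at 71.5 and 85.9 FPKM in Huh7 and 33.8 and 46.9 in PLC. Its relative LIN28A was at 0.266 FPKM or less in every library.

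**Figure D2:**
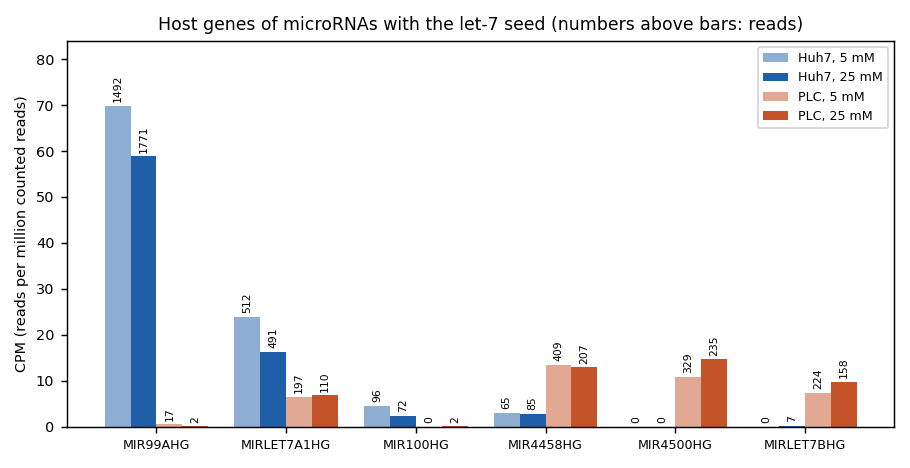
CPM (vertical, linear scale from 0) of the 6 hosts whose microRNAs have the let-7 seed, with 1 bar per library (blue Huh7, orange PLC, pale 5 mM, full colour 25 mM) and the number of reads above each bar. MIR99AHG, MIRLET7A1HG and MIR100HG stand higher in Huh7, and MIR4458HG, MIR4500HG and MIRLET7BHG higher in PLC.

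Hosts of other microRNAs showed differences of the same size between the lines. The hosts MIR548XHG and MIR4307HG met the filter on low counts only through the line where they were higher, so only effect sizes are given. MIR548XHG had 483 and 713 reads in Huh7 and 5 and 6 in PLC (log2 fold change -6.51 ± 0.46 by edgeR). MIR4307HG, on chromosome 14 from 26873092 to 26918594, plus strand, had 8 and 6 reads in Huh7 and 1131 and 315 in PLC (log2 fold change 6.61 ± 0.42 by edgeR). It was the host with the highest level in PLC at 5 mM, with 10.3 FPKM. MIR646HG had 0 reads in both Huh7 libraries and 516 and 242 in PLC, at least 121-fold higher at 5 mM and at least 151-fold higher at 25 mM. Its spliced length is 25152 bases, so these reads make only 0.678 and 0.599 FPKM. MIR5689HG, whose exon overlaps LINC00518 on the opposite strand (0 and 0, then 102 and 11 reads), had 0 and 0 reads in Huh7 and 46 and 14 in PLC. MIR4300HG (23 and 19 reads against 0 and 0) and MIR663AHG (16 and 15 against 1 and 0) were seen at low counts in Huh7.

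Among hosts with reads throughout, those of miR-29, miR-221 and miR-222, and miR-1915 were higher in PLC, and so was MIR181A1HG. MIR181A2HG, which also carries miR-181a and miR-181b, was not called and leaned the other way (log2 fold change -0.42 by edgeR). MIR29B2CHG, the host of the miR-29 family members that repress collagens and other matrix genes, had 63 and 160 reads in Huh7 and 378 and 717 in PLC (log2 fold change 2.60 ± 0.34, adjusted p = 4.11e-05 by edgeR). MIR222HG, whose microRNAs repress the cell cycle inhibitor CDKN1B, had 157 and 138 reads against 466 and 230 (log2 fold change 1.36 ± 0.33). MIR1915HG had 109 and 252 reads against 1148 and 414 (log2 fold change 2.25 ± 0.36). MIR181A1HG (118 and 150 against 500 and 149 reads, log2 fold change 1.25) and MIR193BHG (96 and 88 against 259 and 106, 1.05) differed less. MIR3936HG stood furthest apart in this group, with 17 and 15 reads against 214 and 128 (log2 fold change 3.56), and its exons overlap those of the carnitine transporter SLC22A5 on the opposite strand, which had 122 and 170 reads in Huh7 and 647 and 479 in PLC.
In the opposite direction stood MIR17HG, with 832 and 1240 reads in Huh7 and 418 and 314 in PLC (log2 fold change -1.28 ± 0.27, adjusted p = 0.00173 by edgeR), and MIR600HG, with 863 and 1311 against 307 and 158 (log2 fold change -2.06 ± 0.28). MIR600HG shares 254 bases of exon with the protein-coding gene STRBP on the same strand, which had 2666 and 3461 reads in Huh7 and 2755 and 1136 in PLC. MIR34AHG, the host of the p53-induced miR-34a, had 37 and 85 reads in Huh7 and 16 and 8 in PLC (log2 fold change -2.07 ± 0.59). MIR137HG had 83 and 82 against 28 and 21 reads, and it shares exon positions on the same strand with DPYD, which had 1822 and 2774 reads in Huh7 and 160 and 141 in PLC.
Of the 13 tested hosts that did not pass, MIR924HG, MIR2052HG and MIR133A1HG had unadjusted p-values under 0.05 in the same edgeR fit, with log2 fold changes of -0.91, -0.89 and -0.81 and adjusted p-values of 0.0658, 0.0857 and 0.0877. These had 460 and 844, 97 and 154, and 149 and 204 reads in Huh7, and 187 and 433, 72 and 45, and 104 and 71 in PLC. MIR4453HG (105 and 177, then 116 and 72 reads), MIR503HG (39 and 84, then 34 and 20) and MIR181A2HG (62 and 86, then 60 and 37) were among the other 10. The difference of MIR210HG between the lines was 0.12 on the log2 scale with a standard error of 0.53 (adjusted p = 0.883 from edgeR), an error too wide to call the lines alike.

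At 25 mM glucose MIR29B2CHG was higher than at 5 mM in both lines, MIR122HG in Huh7, and MIR924HG and MIR210HG in PLC. MIR4307HG and MIR181A1HG were lower in PLC, and MIR222HG and MIR100HG in Huh7, where the level of MIR100HG was low (0.157 and 0.0835 FPKM). To compare the concentrations within a line, the ratio of CPM at 25 mM to CPM at 5 mM was taken for hosts with at least 20 reads in the 2 libraries of that line together, and the study's limits were used, a ratio over 1.5 or under 0.67. In Huh7, 30 hosts had enough reads, 7 of them with a ratio over 1.5 and 6 under 0.67. The limits were passed by 25.2% of all 21606 genes with as many reads (13.4% higher and 11.8% lower) and by 37.6% of the lncRNAs (20.4% and 17.2%). In PLC, 29 hosts had enough reads, 5 with a ratio over 1.5 and 3 under 0.67, against 40.2% of all 20716 genes (23.7% higher and 16.5% lower) and 51.4% of the lncRNAs (31.4% and 20%). The median log2 ratio of the hosts was 0.08 in Huh7 and 0.15 in PLC, where the median of all genes was 0.04 and 0.09 and that of the lncRNAs 0.04 and 0.19. Scaling by edgeR's TMM factors in place of library totals lowers every log2 ratio by the same amount, a shift of -0.03 in Huh7 and -0.16 in PLC, and then 5 hosts are higher and 5 lower in PLC. Intervals of the ratio excluded 1 for 14 hosts in Huh7 (8 above and 6 below) and for 13 in PLC (8 above and 5 below). The share of all genes with such intervals was not taken, so these counts show nothing particular to the hosts.

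With library totals, MIR29B2CHG alone of the 22 hosts with enough reads in each line was past the limits in both, and with TMM factors MIR1915HG was too, at 1.61 in Huh7 and 0.607 in PLC. The level of MIR29B2CHG in Huh7 was low, at 0.176 and 0.318 FPKM. Its reads went from 63 to 160 in Huh7, a ratio of 1.80 (95% interval 1.34 to 2.46), and from 378 to 717 in PLC, a ratio of 3.58 (3.16 to 4.06). Changes common to both lines were looked for in the same way, with the line taking the place of glucose as a block in edgeR, and 0 of the 36 hosts tested had an adjusted p under 0.05, against 0.379% of all genes (0.0646% higher and 0.314% lower) and 0.113% of the lncRNAs, all of them lower, while 3 of the 36 had an unadjusted p under 0.05. These were MIR29B2CHG (log2 fold change 1.30 ± 0.33, standard error, adjusted p = 0.133), MIR924HG (1.16 ± 0.37, adjusted p = 0.287) and MIR4307HG (-1.02 ± 0.37, adjusted p = 0.366). The value of MIR4307HG rests almost wholly on PLC, because it had only 8 and 6 reads in Huh7. With DESeq2 or limma-voom 0 hosts passed as well, and with no filter on low counts MIR29B2CHG and MIR924HG did, with adjusted p-values of 0.0148 and 0.0309 from edgeR.

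Of the 22 hosts with at least 20 reads in each line, MIR924HG had the ratio that differed most between them. On chromosome 18 from 39206917 to 39800322, minus strand, it had 460 and 844 reads in Huh7, a ratio of 1.30 (1.16 to 1.46), and 187 and 433 reads in PLC, a ratio of 4.37 (3.67 to 5.21). The ratio in Huh7 was 0.298 times that in PLC (95% counting interval 0.241 to 0.368), which compares 4 libraries and has no replicate check. MIR210HG, the host of the hypoxia-induced miR-210, had 27 and 56 reads in Huh7 (ratio 1.47, 0.915 to 2.43) and 27 and 47 in PLC (3.28, 2.0 to 5.48). MIR4713HG, which shares 43 bases of exon with CYP19A1 on the opposite strand, had 51 and 56 reads in Huh7 (0.78, 0.524 to 1.16) and 19 and 24 in PLC (2.38, 1.25 to 4.60). MIR3142HG, which holds the hairpin of the inflammation-related miR-146a, had 0 reads in both Huh7 libraries and 4 and 16 in PLC, a ratio of 7.55 with an interval from 2.43 to 31.0.

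The hosts lower at 25 mM in PLC were MIR4307HG, with 1131 and 315 reads (ratio 0.525, 0.462 to 0.596), MIR181A1HG, with 500 and 149 reads (0.562, 0.465 to 0.676), and MIR5689HG, with 46 and 14 reads (0.574, 0.292 to 1.06). The interval of MIR5689HG includes 1. In Huh7, MIR181A1HG had 118 and 150 reads and a ratio of 0.903 with an interval from 0.705 to 1.16.

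The best supported increase in Huh7 by number of reads was that of MIR122HG, from 1614 to 3888 reads or from 15.1 to 25.8 FPKM, a ratio of 1.71 (1.61 to 1.81). The other hosts with a ratio over 1.5 in Huh7 beside MIR29B2CHG were MIR1915HG (1.64), MIR34AHG (1.63, 1.10 to 2.47), MIR503HG (39 and 84 reads, 1.53, 1.03 to 2.30), MIR3150BHG (10 and 34 reads, 2.42) and MIR583HG (6 and 16 reads, 1.89, 0.704 to 5.91). Under 0.67 were MIR100HG (0.533, 0.387 to 0.731), MIR222HG (0.625, 0.493 to 0.79), MIR193BHG (0.651, 0.482 to 0.879), MIR4300HG (0.587), MIR3936HG (0.627) and MIR663AHG (0.666), the last 3 with fewer than 50 reads in the 2 libraries together and intervals that include 1. MIRLET7A1HG, at 0.681 (0.601 to 0.773), and MIR99AHG, at 0.843 (0.787 to 0.904), stayed within the limits with intervals below 1. In PLC, MIRLET7BHG had a ratio of 1.33 (1.08 to 1.64), MIR4500HG 1.35 (1.13 to 1.60), MIRLET7A1HG 1.05 (0.827 to 1.34) and MIR4458HG 0.955 (0.804 to 1.13). Among the let-7 seed hosts with at least 20 reads in a line, MIR100HG in Huh7 was past the limits with library totals, and MIRLET7A1HG in Huh7 also with TMM factors, at 0.668. MIR99AHG and MIR100HG in PLC and MIRLET7BHG and MIR4500HG in Huh7 had fewer reads and were not judged.

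MIR1915HG and MIR22HG moved in opposite directions in the lines by their counting intervals. MIR1915HG had a ratio of 1.64 (1.31 to 2.08) in Huh7 and 0.68 (0.607 to 0.762) in PLC. MIR22HG had 445 and 744 reads in Huh7, a ratio of 1.19 (1.05 to 1.34), and 548 and 195 reads in PLC, a ratio of 0.671 (0.567 to 0.792). With TMM factors both were under 0.67 in PLC, at 0.607 and 0.599. MIR17HG had a ratio of 1.06 (0.969 to 1.16) in Huh7 and 1.42 (1.22 to 1.64) in PLC.

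**Figure D3:**
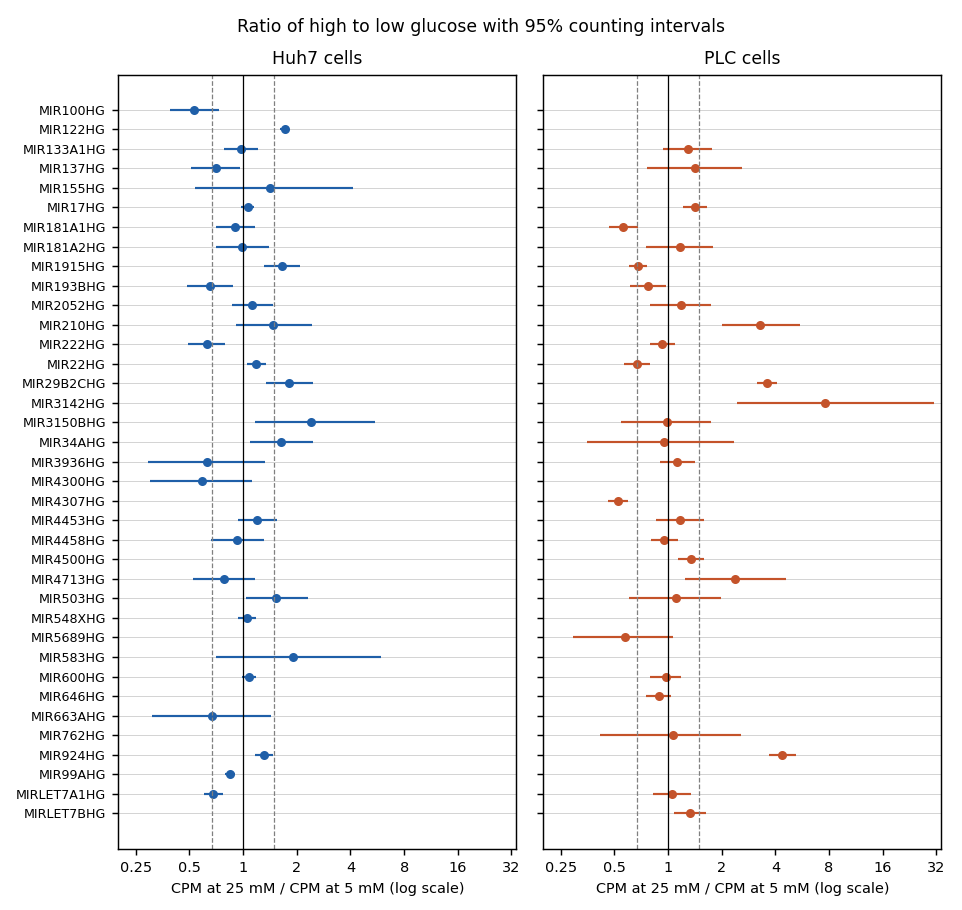
Ratio of CPM at 25 mM to CPM at 5 mM glucose (horizontal, log scale) for the 37 hosts with at least 20 reads in the 2 libraries of at least 1 line together, Huh7 on the left and PLC on the right, with 95% counting intervals; dashed lines mark 0.67 and 1.5, and a row is empty in a panel where reads were too few. MIR29B2CHG lies beyond 1.5 in both panels, and MIR924HG reaches 4.37 in PLC.

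Genes that make, load, edit or degrade microRNAs were set beside the hosts as a list of 28. In Huh7, 0 of the 28 passed the limits, which 25.2% of all genes passed, with ratios from 0.825 (ZSWIM8) to 1.42 (LIN28A, with 21 reads in all). In PLC, where 40.2% of all genes passed, 4 were higher and 2 lower with library totals, and 2 were higher and 4 lower with TMM factors. Past the limits under both scalings were HNRNPA1 (2.13, and 1.90 with TMM factors) and DGCR8 (1.70 and 1.52) upwards, and the Argonaute genes AGO1 (0.652 and 0.582) and AGO3 (0.586 and 0.523) downwards. DROSHA had ratios of 1.19 in Huh7 and 1.08 in PLC, DICER1 0.867 and 1.12, and LIN28B 1.2 and 1.39.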

How the data were processed

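RNA of Huh7 and PLC cells at 5 mM or 25 mM glucose was measured in 4 libraries, 1 per line and concentration. The authors deposited raw counts of reads per gene, without normalization, with gene lengths and exon positions. The submitters' processing notes name HISAT2, featureCounts and hg38; versions, annotation release and strand setting are not given in the sources used here. Of the table, 59652 genes were used, and 5 lines of a broken ANK2 entry were left out. Library columns were matched to samples by line and glucose, and all were used.

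CPM and FPKM were calculated from counts, library totals and the lengths of the table. Classes came from GENCODE 44, by symbol or by reciprocal overlap of at least 0.5, and mature microRNAs from RefSeq, which matched 94 of the 98 hairpins. Ratio intervals are exact 95% Clopper-Pearson intervals of the share of reads in 1 library. Folds against 0 reads use 3 reads per library as the floor. Models were fitted on counts across all genes with edgeR 4.0.16 (filterByExpr, TMM, quasi-likelihood), with DESeq2 1.42.0 and limma 3.58.1 as alternatives, in R 4.3.3, and the code was tested on simulated data. The quasi-likelihood test gives no standard error. Those printed with edgeR fold changes are the absolute log2 fold change divided by the square root of the F statistic. The study states no test for these libraries, and its limits on FPKM and ratio were taken over.

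Hosts and gene lists were chosen with earlier results of these data known. Values are given for hosts with FPKM over 0.5 in at least 1 library and at least 20 reads in that line, or past the limits. Others named, and genes whose exons overlap a host, were chosen after their values were seen.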

Additional observations from a re-analysis of the deposited data

Results flagged for a closer look

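MIR1915HG and MIR22HG were picked out because their ratios of 25 mM to 5 mM glucose lay on opposite sides of 1 in the lines, with counting intervals that excluded 1 in both. MIR1915HG had 1.64 in Huh7 and 0.68 in PLC, and MIR22HG had 1.19 and 0.671. The ratio in Huh7 divided by that in PLC was 2.41 (95% counting interval 1.87 to 3.13) for MIR1915HG and 1.77 (1.44 to 2.18) for MIR22HG. With 1 library per condition no test across samples could be made of it.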

How the results depend on the processing

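The labels carry no replicate numbers and each condition has 1 library, so replicates could not be paired. The fits were blocked on glucose or on cell line, and the block on cell line compares the concentrations within each line. In Huh7 cells, where 13 hosts passed the limits, 6 did with 0.1 added to FPKM, 8 with 20 reads in each library, 6 with FPKM over 0.5 in at least 1 library, 1 with a ratio over 2 or under 0.5, 4 among hosts without any exon overlap and 8 among hosts that overlap hairpins at most, a choice added after the data were seen. In PLC cells, where 8 passed, the counts were 5 with 20 reads in each library, 5 with a ratio over 2 or under 0.5, 13 with an interval that excludes 1, 3 without any exon overlap and 5 with hairpins at most. Of the microRNA processing genes, 1 in place of 6 passed a ratio over 2 or under 0.5 in PLC cells. Between the lines, 11 of the 23 called hosts overlap hairpins at most, and 17 were called by DESeq2. For the change shared by both lines, 2 hosts passed in place of 0 without the filter on low counts. The 177 single ratios under other scalings or with 0.1 added stayed within their counting intervals, and 108 of 115 single line differences kept their side of the threshold, the other 7 being lost with DESeq2 or, for MIR193BHG, also without the glucose block. Counting limits what hosts under 20 reads can show, and 24 of the 61 had fewer in both lines.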

Other observations

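Some hosts have a hyphen in the symbol and fall outside the naming rule. MIR9-3HG, the host of a hairpin of the neural miR-9, had 0 reads in both Huh7 libraries and 93 and 85 in PLC. MIR194-2HG, with the liver and gut miR-194 and miR-192, had 150 and 178 reads in Huh7 and 248 and 208 in PLC, or 1.92, 1.62, 2.25 and 3.55 FPKM. MIR4435-2HG had 2099 and 2592 reads in Huh7, a ratio of 0.877, and 3628 and 969 in PLC, a ratio of 0.504. MIR1302-2HG, MIR124-1HG, MIR124-2HG and MIR1-1HG had 0 reads in all 4 libraries. These hosts were looked at after the data were seen, and their differences were not tested.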
